A study of Bos indicus with 5 samples.

Results

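Regulators of G protein signaling (RGS) were examined in whole bovine ampulla, the oviduct segment where fertilization takes place. The 10 members RGS1, RGS2, RGS3, RGS4, RGS5, RGS10, RGS14, RGS16, RGS19 and RGS20 were taken by gene symbol from the ampulla table, which listed 24616 genes, and each symbol matched 1 gene. RNA sequencing had been done on 5 healthy multiparous Nelore (Bos indicus) cows, 2 of them with a large follicle and a large corpus luteum (LF/LCL) and 3 with a small follicle and a small corpus luteum (SF/SCL). All cows received an intravaginal progesterone device with estradiol benzoate, injections of a prostaglandin F2 alpha analog at device removal and some hours later, and a GnRH agonist that induced ovulation. In LF/LCL the device was removed 42 h before the GnRH agonist and an additional prostaglandin injection was given at device insertion, whereas in SF/SCL removal preceded it by 30 h. On day 4, tissue was taken from the oviduct on the side of the corpus luteum and covered the whole wall, so that epithelium, stroma, vessels and muscle entered each library together. The study had picked the cows as extremes of their groups for follicle diameter, corpus luteum area and steroid concentrations, and had discarded 1 further LF/LCL library for low quality.

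Heterotrimeric G proteins carry signals from cell surface receptors for hormones, prostaglandins, neurotransmitters and chemokines. The receptor loads the G alpha subunit with GTP, and G alpha and the G beta-gamma pair then act on effectors such as adenylyl cyclase and phospholipase C beta. RGS proteins share a domain that speeds GTP hydrolysis on G alpha and thereby shortens the signal. Most members act on the Gi class, the Gq class or both. In the oviduct such receptors control contraction of the muscle layer, vascular tone, secretion and the traffic of immune cells.

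The libraries held from 13418278 to 19592174 reads assigned to genes. OVGP1, the oviduct-specific glycoprotein, had from 117179 to 147247 normalized reads per library, and the epithelial markers KRT8, KRT18 and EPCAM were present in every library. The libraries also differed in tissue make-up as read from marker genes. All 11 tested smooth muscle markers and all 12 tested lymphocyte markers had a higher mean in LF/LCL, and all 9 ciliated cell markers had a higher mean in SF/SCL. In whole tissue, fewer cells of a type and less RNA per cell cannot be told apart.

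A normalized read count is the number of reads of a gene divided by a size factor of the library. Values are not corrected for transcript length, so levels were compared between cows and not between genes. All 10 members had a mean above 5 normalized reads and were tested. The test was limma on log2(value + 1), and fold changes are LF/LCL over SF/SCL on that scale, which understates changes of genes with few reads. By this test 0 of the 10 members had an adjusted p under 0.05, against 0% of the 15815 genes tested. The smallest adjusted p among the members was 0.178, which was also the smallest over all genes. At an unadjusted p under 0.05 there were 2 members, RGS2 and RGS14, against 11.5% of all genes. Both were higher in LF/LCL, a direction that 5.64% of all genes shared at that threshold. The groups did not overlap in 3 members, RGS2, RGS14 and RGS16, all with LF/LCL above SF/SCL. Over all genes tested the groups did not overlap in 30.1%, and in 15% LF/LCL was the higher. The share of members without overlap was thus that of all genes, and at the unadjusted threshold the members exceeded the background by about 1 gene. The median log2 fold change was 0.37 over the members and 0.01 over all genes tested. A higher fitted level in LF/LCL was found in 7 of the 10 members, against 8032 of the 15815 genes tested. Of those 7, RGS5, RGS10 and RGS20 changed direction when 1 library was left out.

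**Figure D1:**
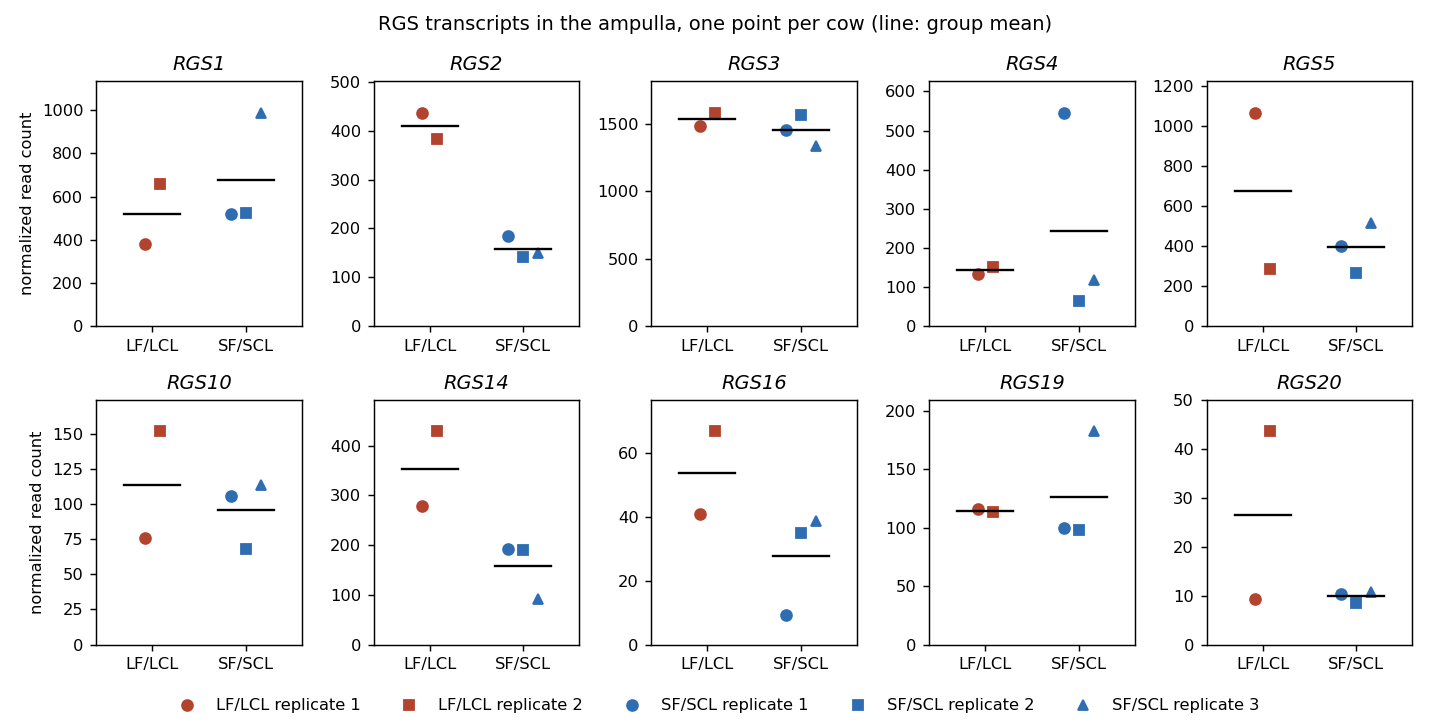
Normalized read counts (y axis, from 0, a separate scale per gene) of the 10 RGS members in each cow, with LF/LCL in red and SF/SCL in blue, a symbol for each replicate and a line at the group mean. RGS2 and RGS14 lie higher in both LF/LCL cows than in any SF/SCL cow, while RGS4, RGS5 and RGS20 each have 1 cow far above the others.

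RGS2 belongs to the R4 subfamily, small RGS proteins with little outside the RGS domain, and is known for limiting Gq signals of vasoconstrictor receptors in smooth muscle. RGS2 (ENSBTAG00000034366) had 436.3 and 383.3 normalized reads in the LF/LCL cows (replicates 1 and 2) against 185.1, 140.7 and 150.2 in the SF/SCL cows (replicates 1 to 3). Values below follow the same order of cows. The lower LF/LCL cow was 2.07 times the highest SF/SCL cow. The means were 409.8 ± 37.5 (SD, n = 2) against 158.7 ± 23.4 (SD, n = 3), a ratio of 2.58. The log2 fold change was 1.37 ± 0.19 (SE), with a 95% interval from 0.90 to 1.84 and a limma adjusted p of 0.178. RGS2 ranked 32 of the 15815 genes by p. DESeq2 on the recovered reads gave a log2 fold change of 1.37 and an adjusted p of 2.1e-06 for RGS2, the only member it called, where it called 2.91% of all genes. The difference was larger than the spread within either group, but it passed the threshold across all genes with DESeq2 only. Without each cow in turn the log2 fold change stayed between 1.28 and 1.49.

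The sum of the smooth muscle markers, like RGS2, was higher in both LF/LCL cows than in any SF/SCL cow. The same held for the lymphocyte, epithelial and proliferation sums. The smooth muscle sum was 138456 and 73125 normalized reads in LF/LCL against 44389, 48186 and 17720.5 in SF/SCL. ACTA2, MYH11 and DES were the most abundant. Of the 11 smooth muscle markers tested, 10 had an unadjusted p under 0.05, all higher in LF/LCL, and none of the 11 was at 0 in any library. Within SF/SCL the marker sum varied 2.72-fold while RGS2 varied 1.32-fold, and within LF/LCL they varied 1.89-fold and 1.14-fold. RGS2 in SF/SCL replicate 3, the cow with the lowest marker sum, was 150.2, close to the 140.7 of SF/SCL replicate 2. Of the SF/SCL cows, replicate 2 had the lowest RGS2 and the highest marker sum. The part of muscle content in the RGS2 difference was not tested.

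RGS3 acts on both Gi and Gq alpha subunits. RGS3 had 1485 and 1579 normalized reads in LF/LCL against 1455, 1564 and 1335 in SF/SCL, so that the groups overlapped and the highest cow was only 1.18 times the lowest. Its log2 fold change was 0.08 ± 0.11 (SE), with a 95% interval from -0.19 to 0.35 and a limma adjusted p of 0.832. Among the members RGS3 had the narrowest interval and the smallest spread between cows.

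RGS4 and RGS5 lie next to each other in the genome, with 0 protein-coding genes between them in the RefSeq gene order of a Bos indicus assembly (Sahiwal x Tharparkar). Both proteins dampen Gi and Gq signals, and RGS5 is widely used as a marker of pericytes, the contractile cells around small vessels. RGS4 had 133.7 and 151.0 normalized reads in LF/LCL against 544.8, 63.0 and 118.1 in SF/SCL. The value of SF/SCL replicate 1, which rested on 524 reads, was 8.65 times that of SF/SCL replicate 2. The log2 fold change of RGS4 was -0.17 ± 0.88 (SE), with a limma adjusted p of 0.965, and edgeR and DESeq2 on the reads gave -0.76. It turned to 0.71 without SF/SCL replicate 1, with a limma adjusted p of 0.616.

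RGS5 had 1066 and 285.5 normalized reads in LF/LCL against 401.3, 265.8 and 515.1 in SF/SCL. Here it was LF/LCL replicate 1 that stood high, at 3.73 times the other cow of its own group, and the groups overlapped. The log2 fold change of RGS5 was 0.54 ± 0.58 (SE), with a 95% interval from -0.91 to 1.98 and a limma adjusted p of 0.781. It was -0.41 without LF/LCL replicate 1 and 1.49 without LF/LCL replicate 2. The neighbours RGS4 and RGS5 thus had their highest values in different cows of different groups.

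The order of the 5 cows for RGS5, from LF/LCL replicate 1 through SF/SCL replicate 3, SF/SCL replicate 1 and LF/LCL replicate 2 down to SF/SCL replicate 2, was also the order of the summed pericyte markers and of the summed stromal fibroblast markers. The pericyte markers, led by NOTCH3, MCAM and PDGFRB, summed to 7308 and 4226 normalized reads in LF/LCL, and in the SF/SCL cows to 4285, 2825 and 5686. The stromal markers, led by DCN, COL3A1 and COL1A2, summed to 71761 and 29064 in LF/LCL, and in the SF/SCL cows to 32845, 18723 and 40567.5. Most single markers of these lists did not follow the order of their sum, and within them only PDGFRB and PDGFRA had that of RGS5. The order was not particular to these lists, as the endothelial markers CDH5 and TEK had it too. The endothelial sum did not, being highest in SF/SCL replicate 3. NOTCH3 was highest (2395) and MCAM lowest (668.6) in SF/SCL replicate 3. DCN was lowest in LF/LCL replicate 2 (8142), where COL3A1 and COL1A2 were above SF/SCL replicate 1. All 7 pericyte markers and all 6 stromal markers were tested, and 1 and 0 of them had an unadjusted p under 0.05. Among the 110 pairs of a member and a marker list, these 2 were the only pairs with the same order of cows. As the pericyte and stromal sums share 1 order, the 2 pairs are not separate matches. With 110 pairs read, such a match can arise by chance. This was read after the values were seen, and over 5 cows it is a description with no p. None of these markers was at 0 in any library, and their part in the level of RGS5 was not tested.

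**Figure D2:**
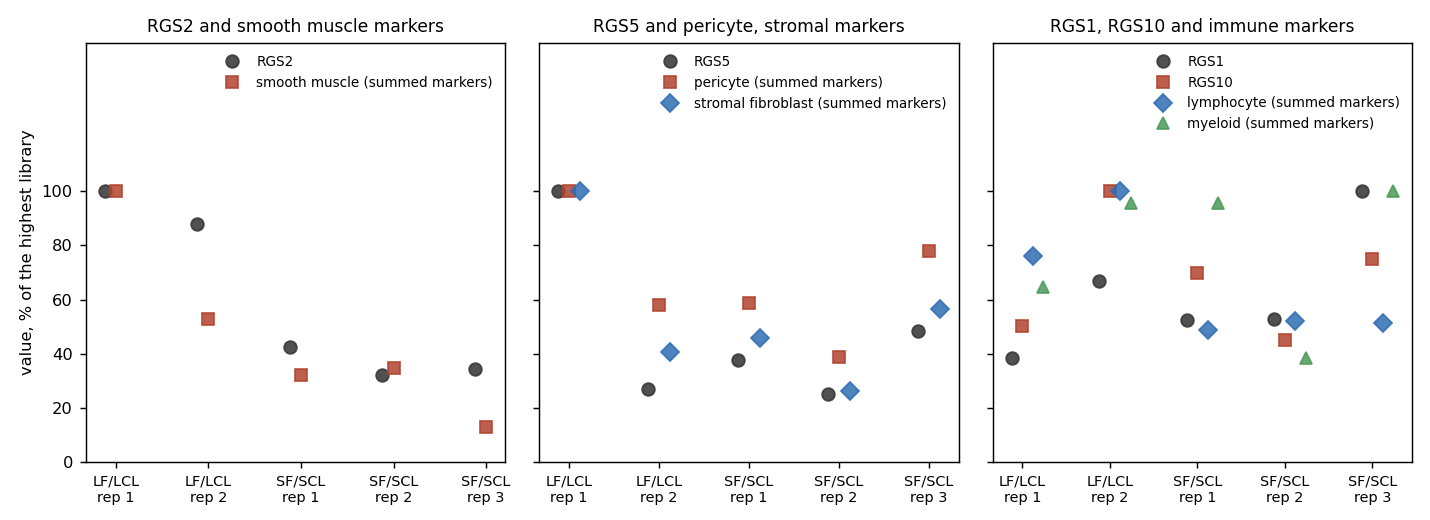
RGS transcripts beside the summed markers of a cell type in each of the 5 libraries (x axis), each as a percentage of its own highest library (y axis). RGS5 falls in the same order of cows as the pericyte and stromal sums, RGS2 varies less within each group than the smooth muscle sum, and RGS1 is highest in SF/SCL replicate 3 while the lymphocyte sum is highest in LF/LCL replicate 2.

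RGS1 and RGS16 are the remaining R4 members. RGS1 is abundant in activated lymphocytes, where it limits chemokine receptor signals, and RGS16 is induced in activated T cells and in several other tissues. RGS1 had 380.0 and 660.1 normalized reads in LF/LCL against 518.8, 523.0 and 987.3 in SF/SCL. The highest value was that of SF/SCL replicate 3 and the groups overlapped. For RGS1 the log2 fold change was -0.36 ± 0.37 (SE), with a limma adjusted p of 0.763.

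All 12 tested lymphocyte markers had a higher mean in LF/LCL, 4 of them with an unadjusted p under 0.05. Led by CD3E, CD52 and IL2RG, the 14 markers summed to 1180 and 1553 normalized reads in LF/LCL, and in the SF/SCL cows to 755.9, 810.6 and 799.5, and MS4A1 and CD79B were at 0 in 1 library each. RGS1 had its lower group mean in the group with the higher lymphocyte marker sum, but the RGS1 groups overlapped. Its log2 fold change was 0.03 without LF/LCL replicate 1. The part of lymphocytes in the level of RGS1 was not tested. RGS1 lies close to RGS2 in the same gene table, with only RGS13 between them. RGS13 itself had from 0 to 3.22 normalized reads and was not tested.

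RGS16 was a gene of few reads, with 41.0 and 66.8 normalized reads in LF/LCL against 9.36, 35.0 and 38.6 in SF/SCL. Overlap was absent, but LF/LCL replicate 1 was only 1.06 times the highest SF/SCL cow. Exact Poisson 95% intervals, which cover counting error only, ran from 28.6 to 57.1 in LF/LCL replicate 1 and from 27.1 to 53.5 in SF/SCL replicate 3, so these cows could not be separated at this depth. SF/SCL replicate 1 was low on 9 reads, with an interval from 4.28 to 17.8. For RGS16 the log2 fold change was 1.12 ± 0.69 (SE), with a limma adjusted p of 0.586, and it was 0.50 without SF/SCL replicate 1.

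RGS19 and RGS20 belong to the RZ subfamily, which carries a cysteine string near the amino end that anchors the protein to membranes. RGS19, also called GAIP, acts on Gi class subunits, and RGS20 acts preferentially on Gz. RGS19 had 116.1 and 113.2 normalized reads in LF/LCL against 99.8, 97.9 and 182.4 in SF/SCL, where SF/SCL replicate 3 alone was high. For RGS19 the log2 fold change was -0.08 ± 0.34 (SE), with a limma adjusted p of 0.955.

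RGS20 (ENSBTAG00000003454) was also measured by PCR in the study, in the sequenced cows and in more cows. The paper reported it higher in LF/LCL over ampulla and isthmus together, although its isthmus PCR mean was higher in SF/SCL. In the ampulla alone the PCR mean was higher in LF/LCL, but not significantly, in either set of cows. The paper's own sequencing of the ampulla also had RGS20 higher in LF/LCL without significance. In the sequencing RGS20 showed the most uneven LF/LCL pair of the members. LF/LCL replicate 2 had 43.6 normalized reads, from 45 reads, with a Poisson 95% interval from 31.8 to 58.3. The other 4 cows had from 8.55 to 10.7 normalized reads, on 8 to 11 reads each, and LF/LCL replicate 1 with 9.38 lay among the SF/SCL cows. The intervals of those 4 cows lay between 4.05 and 19.7, below that of LF/LCL replicate 2, so its high value was larger than counting error. The LF/LCL mean was 26.5 ± 24.2 (SD, n = 2), and the SF/SCL mean 9.89 ± 1.18 (SD, n = 3). The log2 fold change of RGS20 was 0.99 ± 0.73 (SE), with a limma adjusted p of 0.661, and without LF/LCL replicate 2 it was -0.06. The ratio of the means, 2.68, was as large as the 2.58 of RGS2, but for RGS20 it rested on 1 cow.

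RGS10 and RGS14 belong to the R12 subfamily. RGS10 is a small protein known from microglia and macrophages, and RGS14 is a scaffold that also binds Gi alpha subunits through a GoLoco motif and binds Ras family proteins. RGS14 (ENSBTAG00000008497) had 279.1 and 428.8 normalized reads in LF/LCL against 191.3, 191.2 and 92.3 in SF/SCL. The lower LF/LCL cow was 1.46 times the highest SF/SCL cow. The means were 354.0 ± 105.8 (SD, n = 2) and 158.3 ± 57.1 (SD, n = 3), a ratio of 2.24. The log2 fold change of RGS14 was 1.20 ± 0.39 (SE), with a 95% interval from 0.25 to 2.15 and a limma adjusted p of 0.359. DESeq2 gave RGS14 an adjusted p of 0.107. Without each cow in turn the log2 fold change of RGS14 ran from 0.85 to 1.51, and without LF/LCL replicate 2 the unadjusted p of RGS14 was over 0.05. Lymphocyte markers also had their highest sum in the cow with the highest RGS14, LF/LCL replicate 2, and the next highest in LF/LCL replicate 1. Within SF/SCL, however, RGS14 varied 2.07-fold and the lymphocyte sum 1.07-fold. The smooth muscle sum was lowest in SF/SCL replicate 3, as was RGS14, but highest in LF/LCL replicate 1. The part of either marker list in the RGS14 difference was not tested.

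RGS10 had 76.2 and 152.0 normalized reads in LF/LCL against 106.0, 68.4 and 113.8 in SF/SCL, and the LF/LCL cows lay on both sides of 2 of the SF/SCL cows. For RGS10 the log2 fold change was 0.20 ± 0.40 (SE), with a limma adjusted p of 0.897. Myeloid markers, 7 in all, led by CSF1R, AIF1 and CD14, summed to 1302 and 1927 normalized reads in LF/LCL, and in the SF/SCL cows to 1923, 774.8 and 2011, with 0 of 7 at an unadjusted p under 0.05 and none at 0 in any library. RGS10 and the myeloid sum were both lowest in SF/SCL replicate 2 and next lowest in LF/LCL replicate 1. RGS10 was highest in LF/LCL replicate 2, however, and the myeloid sum in SF/SCL replicate 3. This was read after the values were seen, and the part of myeloid cells in RGS10 was not tested.

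**Figure D3:**
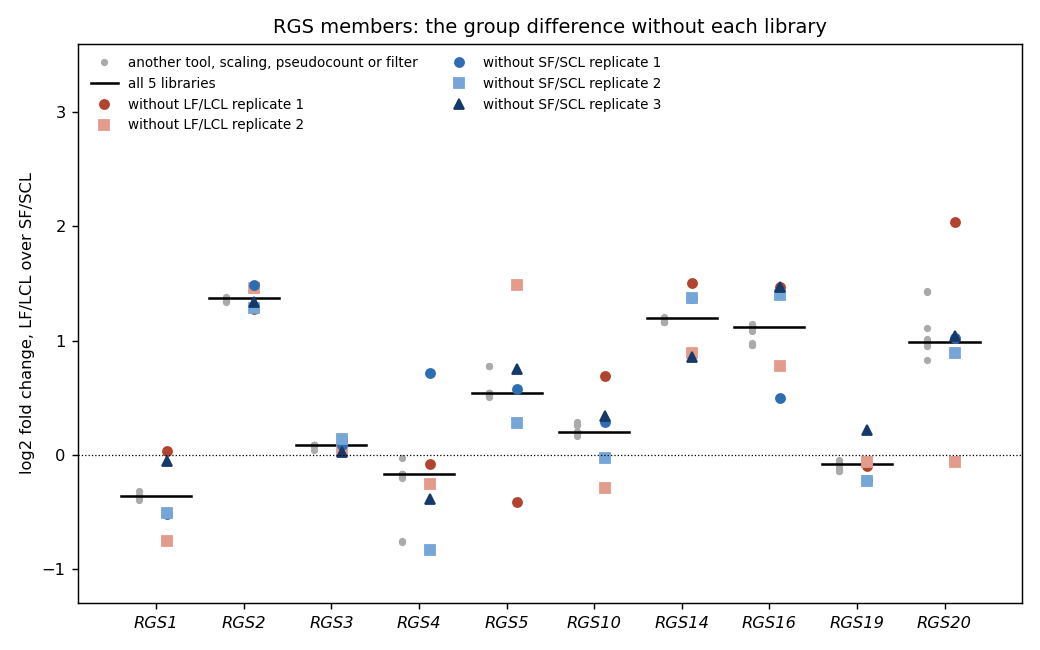
Log2 fold change of each RGS member, LF/LCL over SF/SCL (y axis), with all 5 libraries (black line), without each library in turn (coloured symbols) and with another tool, scaling, pseudocount or filter (grey dots). RGS2, RGS3, RGS14 and RGS16 stay above 0 throughout, RGS5 runs from -0.41 to 1.49, and RGS20 falls to -0.06 without LF/LCL replicate 2.

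Across the cows, RGS2 was higher in both LF/LCL cows by a margin above the spread within each group. RGS14 was also higher in both, but its 1.46-fold margin was below its 2.07-fold spread within SF/SCL. RGS16 was higher in both by a margin within counting error. RGS3 was nearly level. RGS4, RGS5 and RGS20 each had 1 cow at least 2 times any other, in SF/SCL replicate 1, LF/LCL replicate 1 and LF/LCL replicate 2. RGS1 and RGS19 were highest in SF/SCL replicate 3, and RGS10 was highest in LF/LCL replicate 2 with overlapping groups. By the coefficient of variation over the 5 cows, RGS4 was more variable than 97.8%, and RGS20 than 97.4%, of the genes tested.

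The rest of the family was read beside the members. The table listed 14 other RGS genes or RGS partners, of which 8 were tested. RGS8, RGS17, RGS21 and RGS9BP were listed at 0 in all 5 libraries, and RGS13 and RGS18 had a mean under 5. RGS6, RGS7, RGS9 and RGS11 form the R7 subfamily, whose members pair with the G beta subunit GNB5. RGS11 had 382.3 and 403.6 normalized reads in LF/LCL against 256.8, 200.5 and 253.3 in SF/SCL, without overlap between the groups. Its log2 fold change was 0.74 ± 0.18 (SE), with a limma adjusted p of 0.284 and a DESeq2 adjusted p of 0.030, and it was the only 1 of the 8 with an unadjusted limma p under 0.05. The log2 fold changes of RGS6, RGS7 and RGS9 were -0.23 ± 0.30, -0.50 ± 0.49 and -0.27 ± 0.35 (SE), with limma adjusted p of 0.823, 0.755 and 0.822. For GNB5 the log2 difference was 0.00 ± 0.20 (SE), with a 95% interval from -0.49 to 0.49.

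RGS12, of the same subfamily as RGS10 and RGS14, differed by -0.08 ± 0.25 (SE, log2), with a limma adjusted p of 0.932. RGS22 had 4997 and 5068 normalized reads in LF/LCL against 5532, 9013 and 5767 in SF/SCL, all SF/SCL cows above LF/LCL, with a limma adjusted p of 0.564. The ciliated cell markers summed to 39838 and 50480 in LF/LCL and from 60121 to 62028 in SF/SCL, with 8 of 9 at an unadjusted p under 0.05 and none at 0. Within SF/SCL the ciliated sum varied 1.03-fold while RGS22 ran from 5532 to 9013. Within LF/LCL the sum varied 1.27-fold while RGS22 was nearly level. The part of ciliated cells in the level of RGS22 was not tested. RGS7BP, a membrane anchor for the R7 subfamily, and RGSL1 had means under 10 and limma adjusted p of 0.979 and 0.856.

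**Figure D4:**
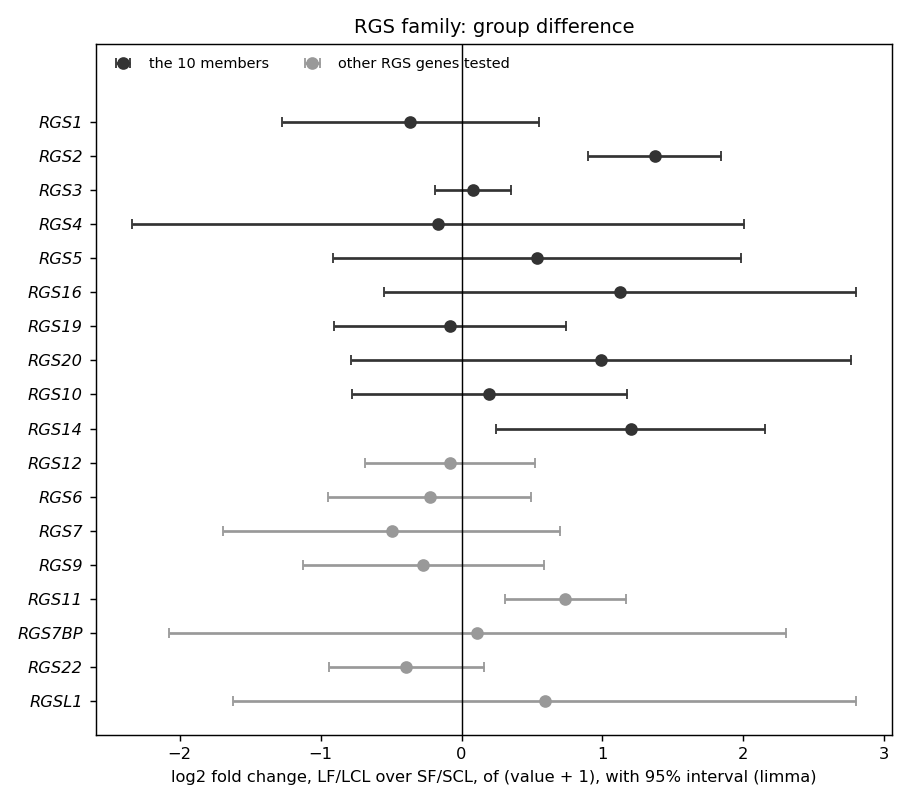
Log2 fold change of (value + 1), LF/LCL over SF/SCL (x axis), with its 95% interval from limma for the 10 members (black) and the 8 other RGS genes tested (grey). The intervals of RGS2, RGS14 and RGS11 lie above 0, and the other 15 include 0.

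The proteins on which RGS act, and their effectors, were examined by a list of 59 symbols. The table held 58 entries for them, as GNG11 and GNAS were listed more than once and a few symbols were not matched. Of these, 52 were tested, 0 had a limma adjusted p under 0.05 and 9 had an unadjusted p under 0.05, 7 with LF/LCL and 2 with SF/SCL above, where 11.5% of all genes tested passed that threshold. DESeq2 called 4 of the entries, which were both of GNG11, GNG10 and GNAI2, against 2.91% of all genes. The median log2 fold change was 0.08, and the groups did not overlap in 19 of the 52, 12 with LF/LCL higher, against 30.1% and 15% of all genes. The count at an unadjusted p under 0.05 fell without LF/LCL replicate 1, as did the share over all genes.

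The 5 genes with the smallest p among those with a mean of at least 50 were GNG11, GNG10, GNAI2, PLCB1 and ADCY5. GNG11 and GNG10 encode G gamma subunits. The GNG11 entry ENSBTAG00000000820 had 4883 and 3234 normalized reads in LF/LCL against 1769, 1459 and 1354 in SF/SCL. Its log2 fold change, 1.39 ± 0.21 (SE), came with a limma adjusted p of 0.178. The fold change of a further GNG11 entry, ENSBTAG00000034449, was 1.36 ± 0.25 (SE, log2). As near-identical copies can split reads between them, both are uncertain. For GNG10 it was 0.73 ± 0.12 (SE), with a limma adjusted p of 0.193.

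GNAI2, the Gi alpha subunit common in leukocytes and muscle, had 5440 and 5442 normalized reads in LF/LCL against 4463, 4131 and 4234 in SF/SCL. Its log2 fold change was 0.35 ± 0.09 (SE), with a limma adjusted p of 0.307. For PLCB1, a phospholipase C beta activated by Gq, it was 0.88 ± 0.28 (SE), with a limma adjusted p of 0.350. For ADCY5, an adenylyl cyclase inhibited by Gi, it was 1.24 ± 0.42 (SE), with a limma adjusted p of 0.369. Among the entries, the 2 with an unadjusted p under 0.05 and SF/SCL higher were ADCY2, at -0.75 ± 0.30 (SE), and the receptor kinase ADRBK2, at -0.37 ± 0.13 (SE). None of the alpha subunits of the Gq class passed the test. Their log2 fold changes were -0.14 ± 0.15 (SE) for GNAQ, -0.24 ± 0.11 for GNA11, 1.26 ± 0.59 for GNA14 and 0.68 ± 0.57 for GNA15, with limma adjusted p of 0.765, 0.473, 0.484 and 0.702. GNAZ, the subunit on which RGS20 acts, differed by -0.19 ± 0.23 (SE, log2), with a limma adjusted p of 0.809.

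**Figure D5:**
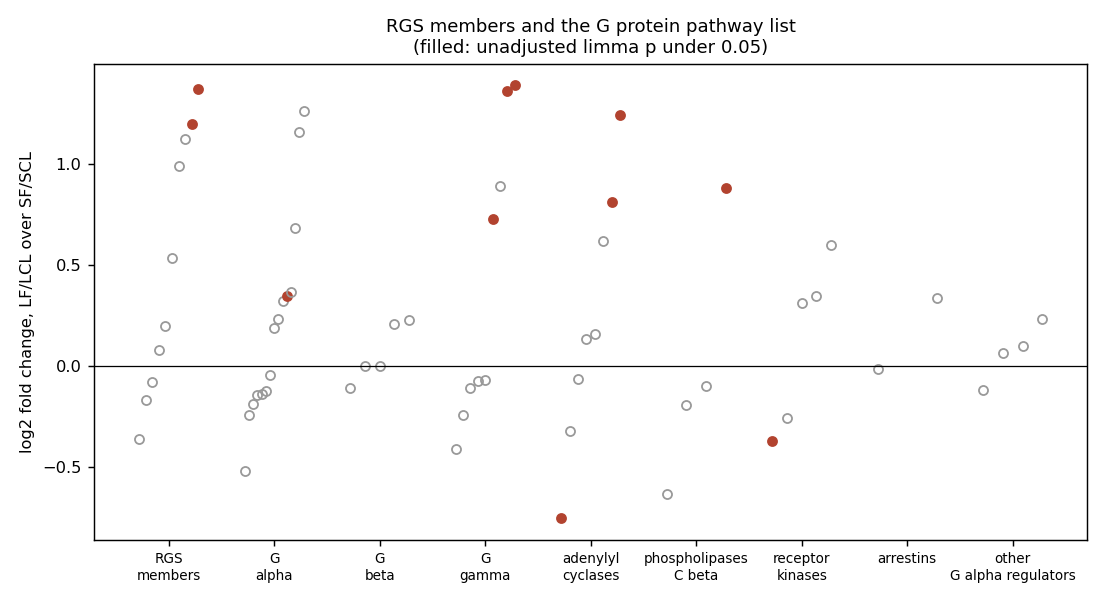
Log2 fold change, LF/LCL over SF/SCL (y axis), of the RGS members and of the tested genes of the G protein pathway list by role (x axis), with 1 point per table entry, filled where the unadjusted limma p was under 0.05. The 2 filled RGS points are RGS14 and RGS2, and the highest filled G gamma points are the GNG11 entries.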

How the data were processed

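Ampulla RNA from 5 cows was sequenced by the authors as polyA libraries on a HiSeq instrument. They trimmed read pairs with seqyClean, aligned them with TopHat2 and Bowtie2 to the masked UMD assembly of Bos taurus (the cows were Bos indicus), counted uniquely mapped reads per Ensembl gene with HTSeq-count, and divided them by DESeq size factors. The deposited values are therefore a normalized signal. Use of strand was not stated, so antisense, overlapping and near-identical genes are uncertain.

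Every nonzero value was a whole multiple of 1 step per library (100% within 0.1 read), which gave whole reads. The main test was limma 3.58.1 on log2(value + 1), with eBayes (trend and robust), for the 15815 genes with a mean over 5, two-sided, with Benjamini-Hochberg adjustment over all of them. DESeq2 1.42.0, edgeR 4.0.16 quasi-likelihood and limma-voom on the recovered reads, other scalings, pseudocounts and filters, and each library left out were alternatives. Limma, edgeR quasi-likelihood, DESeq2 and limma-voom were run on simulated data, where recovery of the median fold change was checked. The other scalings, pseudocounts, filters and left-out fits were not simulated. Library pairs of a group differed by more than sampling noise (mean chi-square per gene of at least 29.7). An exact permutation test of 2 against 3 cows cannot go below 0.2, two-sided, so none was run.

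The members, the pathway list and the marker lists (smooth muscle, pericyte, stromal, lymphocyte, myeloid, ciliated, epithelial, endothelial, secretory, proliferation, blood) were chosen with earlier results of these data known. Named genes were all RGS genes, the 5 pathway genes with the smallest p at a mean of at least 50, and the 3 most abundant markers of a list beside a result. ADCY2, ADRBK2, GNB5, GNAZ, the Gq class subunits and the markers PDGFRA, CDH5 and TEK were named after their values were seen. Each library was 1 cow per the labels, no batch was given, and gene order came from a RefSeq table in which all 10 members were found.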

Additional observations from a re-analysis of the deposited data

How the results depend on the processing

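The number of genes called was 0 under each alternative but DESeq2, which called 460 (222 with LF/LCL and 238 with SF/SCL above). The cause was not tested. The 2 members at an unadjusted p under 0.05 were RGS2 and RGS14 in each fit that kept both LF/LCL cows. In those fits 9.45% to 12.7% of all genes passed. Without either LF/LCL cow the members at that threshold changed. Leaving out an LF/LCL cow leaves 1, which is assumed to vary like SF/SCL. Members whose groups did not overlap numbered 4 to 6 without each library, because fewer cows were compared. Pathway entries at an unadjusted p under 0.05 numbered 5 (without LF/LCL replicate 1) to 10 without each library and 8 to 11 under the other alternatives, and these counts were recomputed as alternatives chosen after seeing the data.

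Some directions changed without 1 library. Without LF/LCL replicate 1 RGS1 was at 0.034, where its lowest value was -0.761. RGS4 ran from -0.833 to 0.714 (without SF/SCL replicate 1), RGS5 from -0.412 (without LF/LCL replicate 1) to 1.485, RGS19 from -0.234 to 0.212 (without SF/SCL replicate 3) and RGS20 from -0.063 (without LF/LCL replicate 2) to 2.038. RGS10 ran from -0.296 (without LF/LCL replicate 2) to 0.69, with -0.028 without SF/SCL replicate 2. No other tool, scaling, pseudocount or filter changed a member's direction, but DESeq2 moved RGS4 to -0.762 and RGS20 to 1.434. The limma adjusted p of RGS2 ran up to 0.402 without a library. No paired analysis was possible because the labels give animal numbers that the groups do not share. RGS16 and RGS20 were limited by depth, with 45 reads or fewer in all libraries but 1.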

Other observations

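The remaining marker lists were among the 110 pairs of a member and a list, and none of their sums had the order of a member. All 6 proliferation markers had a higher mean in LF/LCL, 3 of them with an unadjusted p under 0.05, and their sum ran from 1248 to 1629 normalized reads in LF/LCL and from 1085 to 1161 in SF/SCL. Of the 8 endothelial markers 4 had a higher fitted level in LF/LCL, and the sums ran from 4951 to 7865 and from 5998 to 8658. The 3 secretory markers summed to between 118451 and 148109 in the 5 libraries, with PAX8 the 1 at an unadjusted p under 0.05. The 3 epithelial markers matched summed to between 26952 and 28816 in LF/LCL and between 21977 and 24551 in SF/SCL. The blood markers summed to 506.6 and 65.8 in LF/LCL and to 21.8, 233.9 and 16.1 in SF/SCL, with ALAS2 at 0 throughout.

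RGS10 and RGS20 put the 5 cows in the same order, with LF/LCL replicate 2 highest, as did RGS1 and RGS9, with SF/SCL replicate 3 highest. For RGS20 the order of the cows below LF/LCL replicate 2 rested on 8 to 11 reads each, with overlapping Poisson intervals. SF/SCL replicates 1 and 2 were nearly tied, at 518.8 and 523.0 for RGS1 and 124.8 and 125.9 for RGS9. These orders were read after the values were seen, among many pairs of genes, so such matches can arise by chance.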
